A study of Mus musculus with 18 samples.

Results

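The Zfp900-series genes are the mouse genes whose symbols run from Zfp900 to Zfp999. By symbol, 63 protein-coding genes on chromosomes 1 to 19 were found in the GENCODE M21 annotation of mm10, out of 20807 protein-coding genes on the same chromosomes. Most encode C2H2 zinc finger proteins, in which each finger folds around a zinc ion held by paired cysteines and paired histidines and reads a few bases of DNA. Many genes of this kind also carry a KRAB domain, which recruits the co-repressor Trim28 and through it the H3K9 methyltransferase Setdb1. Such genes arose largely by tandem duplication, they lie in clusters, and the clusters themselves are known carriers of trimethylated histone H3 lysine 9 (H3K9me3), a mark of heterochromatin.

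The data are ChIP-Seq region lists from livers of male C57BL/6 mice. Lamin B1, a component of the nuclear lamina, and H3K9me3 were each profiled in wild-type mice of 3 months (young, 2 libraries) and 21 months (old, 2 libraries). The winged-helix factor Foxa2 was profiled at 12 weeks in wild-type littermates (3 libraries) and in Zmpste24 KO mice (3 libraries), which lack throughout the body the protease that matures prelamin A. The extraction protocol in the labels speaks of wild-type mice for every library, the KO libraries included, and the genotype was taken from the sample titles. Replicates were merged before regions were called, and the lists give positions without height or score. No value per library could therefore be shown, no test between ages or genotypes was possible, and each difference below is a description of a pair of lists. A domain missing from a list means only that none was called there. The ages were not sequenced alike: by the study's library statistics the merged lamin B1 data held more aligned reads in young than in old livers, and the merged H3K9me3 data held more in old than in young livers. The part of depth in the differences between ages below was not tested. They hold no expression values either, and the liver label was not checked against marker genes.

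The lists held 1624 lamin B1 domains in young livers and 1519 in old livers, which covered 466.28 Mb and 930.32 Mb. For H3K9me3 they held 2784 regions in young livers (575.67 Mb) and 2496 in old livers (616.55 Mb). Both H3K9me3 lists are much shorter than the sets of regions that the study describes for the same ages, and what set them apart is not stated. Foxa2 was called at 4960 sites in wild type and 8177 in Zmpste24 KO. Every start and end of a lamin B1 or H3K9me3 domain falls on a step of 10 kb, so an overlap with a gene body is known to within 1 such window.

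The 63 genes fell into 24 places on 12 chromosomes, when genes at most 1 Mb apart were joined. There were 6 clusters. The largest, on chromosome 4, held 16 members over 2337.61 kb (chr4:145510759-147848366). The chromosome 2 cluster held 10 members over 2706.04 kb (chr2:175372436-178078476), and the chromosome 17 cluster 10 members over 1300.13 kb (chr17:21567008-22867134). Smaller groups lay on chromosome 7 (Zfp977, Zfp976, Zfp975 and Zfp936), chromosome 8 (Zfp930, Zfp964 and Zfp963) and chromosome 13, where Zfp935 and Zfp934 overlap. The other 18 members stood alone. Because neighbours share domains, the members are not independent observations.

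The zinc fingers themselves are visible in the coding sequence as a repeat of 28 codons. Translating the longest annotated coding sequence of each member and counting the pattern of 2 residues between the cysteines, 12 between the inner cysteine and histidine, and 3 to 5 between the histidines gave 649 fingers. The median member had 11, and 640 fingers (98.6%) lay in the last coding exon. Zfp974 on chromosome 7 had the most, with 21. No finger of this pattern was found in Zfp935, Zfp957 or Zfp972. The first 3 fingers of Zfp974, which follow each other without a gap at chr7:27911753-27912004 on the minus strand, are shown in the GRCm38 sequence because they show the unit from which these genes are built. Capitals mark the codons of the cysteines (TGT) and histidines (CAT or CAC).
Zfp974 finger 1: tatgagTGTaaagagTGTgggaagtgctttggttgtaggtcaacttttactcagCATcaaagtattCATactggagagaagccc
Zfp974 finger 2: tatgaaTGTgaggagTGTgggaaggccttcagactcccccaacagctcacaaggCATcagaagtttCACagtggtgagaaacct
Zfp974 finger 3: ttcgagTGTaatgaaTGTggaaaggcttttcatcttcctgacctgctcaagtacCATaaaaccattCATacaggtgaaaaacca

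On chromosome 2 the repetition extends from fingers to whole genes. The annotated coding sequences of Zfp966, Zfp967, Zfp968 and Zfp969 are identical over all 1455 bases, and those of Zfp965 and Zfp973 over all 954 bases. In the chromosome 4 cluster, Zfp991 and Zfp992 differ at 8 of 1719 coding bases, and Zfp987 and Zfp988 at 94 of 1899. In the chromosome 17 cluster, Zfp947 and Zfp995 differ at 65 of 1311. The promoters repeat as well. In the RefSeq promoter table (GRCm38.p6, 250 bases before to 50 after a start), which matched 53 of the 63 members, Zfp966 and Zfp967 are the same at all 300 bases and Zfp968 and Zfp973 at 299. For 48 of the 53 the RefSeq start lies within 100 bp of the GENCODE start. For 4 (Zfp935, Zfp936, Zfp981 and Zfp993) it lies more than 1 kb away. Start sites in the counts below are those of GENCODE. The bases before the start are shown for Zfp966, Zfp967, Zfp968 and Zfp973, since reads from identical stretches cannot be assigned to a single gene. They lie at chr2:175931101-175931350 (Zfp966, minus strand), chr2:176520754-176521003 (Zfp967, plus strand), chr2:175372186-175372435 (Zfp968, plus strand) and chr2:176670272-176670521 (Zfp973, plus strand). The capital marks the base that differs between Zfp968 and Zfp973.
Zfp966 and Zfp967: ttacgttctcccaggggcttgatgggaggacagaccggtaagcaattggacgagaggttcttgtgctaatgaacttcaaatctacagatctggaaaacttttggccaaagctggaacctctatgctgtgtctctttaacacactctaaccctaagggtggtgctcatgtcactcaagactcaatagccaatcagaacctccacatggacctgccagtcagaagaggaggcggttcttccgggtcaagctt
Zfp968: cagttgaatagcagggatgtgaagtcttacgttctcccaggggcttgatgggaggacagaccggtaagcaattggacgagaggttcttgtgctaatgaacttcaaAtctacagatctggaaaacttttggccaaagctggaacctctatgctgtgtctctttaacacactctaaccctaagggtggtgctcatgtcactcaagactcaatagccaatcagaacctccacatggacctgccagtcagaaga
Zfp973: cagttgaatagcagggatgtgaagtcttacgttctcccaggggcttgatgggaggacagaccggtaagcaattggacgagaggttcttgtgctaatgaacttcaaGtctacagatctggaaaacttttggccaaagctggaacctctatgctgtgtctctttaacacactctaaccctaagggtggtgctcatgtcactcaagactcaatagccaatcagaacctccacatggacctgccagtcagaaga

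This bears on every count below, because only reads that aligned to a single place were kept before calling. As a measure of it, 40-base stretches were taken along each gene body, 40 bases being the shorter of the read lengths used, and the share found once in the genome was counted. The median member had 57.5% unique stretches, against 95.7% for all protein-coding genes and 95.2% for the 295 other Zfp genes. Zfp968, Zfp965, Zfp969, Zfp966 and Zfp967 had 0%, and the median of the chromosome 2 cluster was 2.57%. The chromosome 4 cluster ran from 3.5% (Zfp993) to 67.7% (Zfp933) with a median of 18.3%. The chromosome 17 cluster ran from 58.7% (Zfp994) to 95.2% (Zfp948) with a median of 81.1%. The highest member was Zfp956 on chromosome 6, at 99.2%. With 60-base stretches the median over members was 74.2%, against 98% over all genes.

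Members without domains were mostly members with little unique sequence, whose part in the missing calls was not tested. Of the 63, 18 (28.6%) were touched by no domain of the 4 lamin B1 and H3K9me3 lists, against 20% of all protein-coding genes. These 18 had a median of 7.56% unique stretches, and the 45 touched members a median of 72.5%. The 18 comprised all chromosome 2 cluster members but Zfp931, then Zfp980, Zfp986, Zfp987, Zfp993, Zfp989 and Zfp991 on chromosome 4, and Zfp954, Zfp934 and Zfp960 elsewhere. Zfp954 on chromosome 7 was the exception among them, with 92.6% unique stretches and an H3K9me3 region of old livers 4.69 kb away. The same was seen in windows of 10 kb with the least unique sequence. The windows run to 50 kb beyond the outermost members of a cluster, and those without known bases were left out. Of 206 windows of the chromosome 2 cluster with under 20% unique stretches, 0 lay in a domain of any list. Of 109 such windows of the chromosome 4 cluster, 0 lay in a lamin B1 domain at either age or in young H3K9me3, and 3 lay in old H3K9me3. In the 44 chromosome 4 windows with at least 50% unique stretches, 38 lay in young lamin B1 domains, 33 in old lamin B1 domains, 34 in young H3K9me3 and 38 in old H3K9me3. More unique sequence did not always go with calls. Of 9 chromosome 2 windows with at least 50% unique stretches, 0 lay in young lamin B1 or young H3K9me3, 1 in old lamin B1 and 5 in old H3K9me3. The lamin B1 window (chr2:178120001-178130000) lies beyond the last member, as do the H3K9me3 windows from 178090001 on. In the chromosome 17 cluster, which had 0 windows under 20%, old H3K9me3 held 68% of the 25 windows with 20 to under 50% unique stretches and 63.8% of the 116 with at least 50%. Over the whole genome, the 1096 protein-coding genes with under 50% unique stretches were called in 5.29% (lamin B1, young) and 8.67% (lamin B1, old), and in 6.11% and 6.2% for H3K9me3. Calls are therefore given for all members and also for the 37 members with at least 50% unique stretches.

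**Figure D1:**
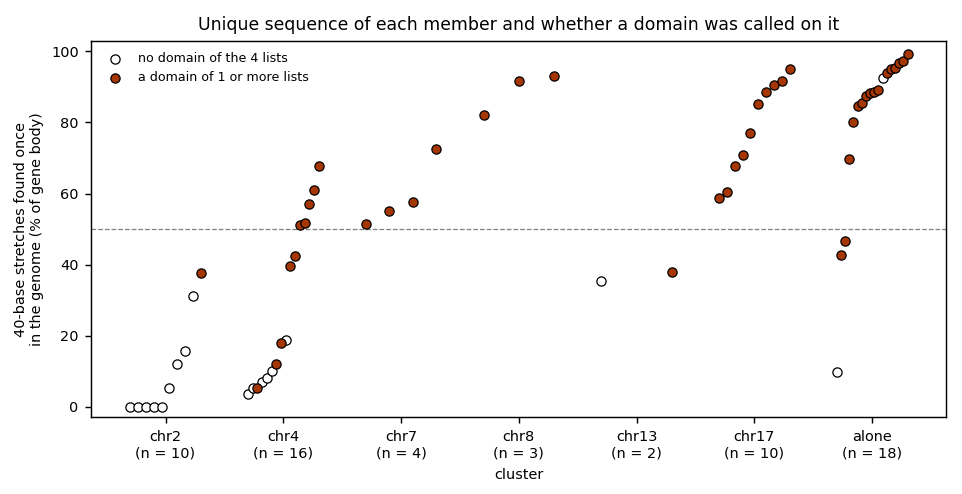
Each point is 1 of the 63 members, placed by cluster or, for the 18 lone members, under "alone". The vertical axis gives the per cent of 40-base stretches of the gene body found once in the genome, with a dashed line at 50%, and filled points mark members touched by a domain of 1 or more of the 4 lists. Open points, the 18 members without a domain, gather at the low end of the chromosome 2 and chromosome 4 clusters, with Zfp954 as the open point at 92.6%.

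H3K9me3 covered most members with alignable sequence, at both ages. In young livers 42 of 63 gene bodies (66.7%) touched an H3K9me3 region, against 17.4% of all protein-coding genes and 49.8% of the other Zfp genes. In old livers the count was again 42 (66.7%), against 31.2% of all genes and 59.7% of the other Zfp genes. Among the 37 members with at least 50% unique stretches, 35 (94.6%) were touched in young and 33 (89.2%) in old livers, where the shares for all genes above the same limit were 18.1% and 32.6%. The coverage was broad. The median member had 87.5% of its gene body inside H3K9me3 regions in young and 100% in old livers, where the median over all genes was 0% at each age. The whole gene body was covered in 29 members (46%; all genes 10.5%) in young and 33 members (52.4%; all genes 22.3%) in old livers.

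The start sites were covered less often than the gene ends, where the finger exon lies. H3K9me3 regions held the start site of 30 members (47.6%) in young livers and 34 (54%) in old ones, against 13.6% and 25.7% of all genes. They held the gene end of 41 members (65.1%) and 42 members (66.7%), against 14.3% and 28% of all genes. Counting any annotated transcript start narrowed the gap, with 35 members (55.6%) in young and 37 (58.7%) in old livers. The other Zfp genes had the same order, with start sites at 42.4% and 51.2% and gene ends at 48.5% and 58.3%. Zfp932 on chromosome 5 had its gene end inside and its start site outside, with 74.9% of its gene body covered at both ages. Zfp994 (80.2%) and Zfp946 (82.2%) in the chromosome 17 cluster had the same pattern. Zfp936 (92.6%) on chromosome 7 had it by its GENCODE start only. Its RefSeq start, 63361 bp away, was inside an H3K9me3 region at both ages. The same held for Zfp935 on chromosome 13, whose RefSeq start lies 91699 bp from its GENCODE start.

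H3K9me3 calls on the members hardly differed between the ages, with the deeper data in old livers. Touched at both ages were 40 members (63.5%; all genes 10.3%), and 29 had their start site inside at both ages (46%; all genes 7.45%). Of the 42 members touched in young livers 95.2% were thus touched in old livers, whereas of the 3628 protein-coding genes touched in young livers 2144 (59.1%) were, and of 147 other Zfp genes 136 (92.5%). Only 2 members were touched in young livers alone, Zfp990 (32.3% of its body) and Zfp983 (100%), which is 3.17% of members against 7.13% of all genes. Zfp990 was a borderline case. Its region began at 145530001 in young and at 145540001 in old livers, a shift of 1 calling window that left it 0.813 kb away. Another 2 were touched in old livers alone, Zfp931 (100%) and Zfp988 (100%), again 3.17%, against 20.9% of all genes. Zfp988 and Zfp931 have 12.1% and 37.7% unique stretches.

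**Figure D2:**
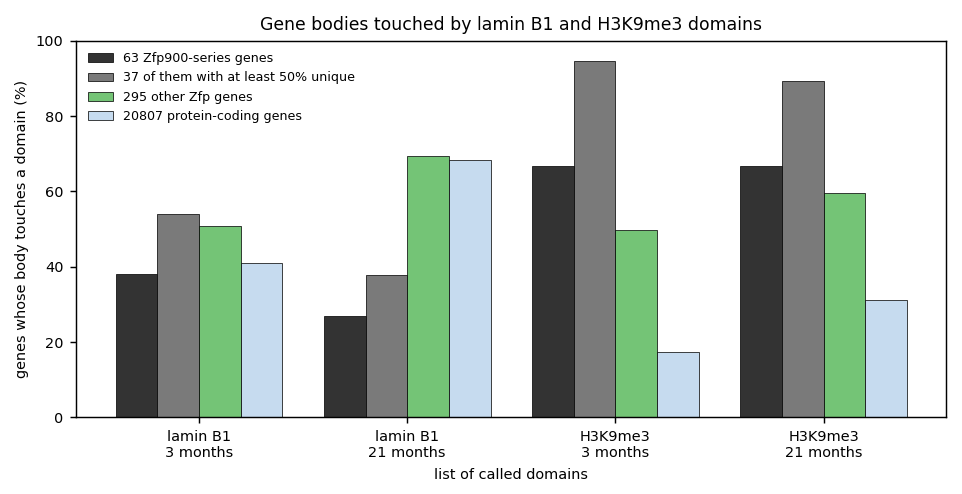
Bars give the per cent of genes whose body touches a called domain (vertical axis from 0 to 100%) in each of the 4 lists, for the 63 members, the 37 of them with at least 50% unique stretches, the 295 other Zfp genes and all 20807 protein-coding genes. H3K9me3 bars of the members stood above those of all genes at both ages, and the lamin B1 bar of the members fell from 38.1% to 27% while that of all genes went from 40.9% to 68.3%.

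Lamin B1, with the deeper data in young livers, behaved otherwise. In young livers 24 members (38.1%) touched a lamin B1 domain, close to the 40.9% of all protein-coding genes and below the 50.8% of the other Zfp genes. In old livers 17 members (27%) did, against 68.3% of all genes and 69.5% of the other Zfp genes. The start site lay in a domain for 15 members (23.8%) in young and 14 (22.2%) at 21 months, against 38% and 65.7% of all genes. The gene end did for 21 members (33.3%; all genes 37.7%) in young and 14 (22.2%; all genes 66.1%) in old livers. The whole gene body was inside for 12 members (19%; all genes 34.6%) and 11 members (17.5%; all genes 62.4%). Among the 37 members with at least 50% unique stretches, 20 (54.1%) were touched in young and 14 (37.8%) in old livers, and the shares of all genes above that limit were 42.9% and 71.6%. The direction between the ages was thus the same in the members with alignable sequence.

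Seen gene by gene, 15 members were in lamin B1 domains at both ages (23.8%; all genes 36.6%), 9 in young livers only (14.3%; all genes 4.36%) and 2 in old livers only (3.17%; all genes 31.7%). Of the 24 members in young domains 62.5% were also in old domains, against 89.3% of 8519 protein-coding genes and 82% of 150 other Zfp genes. The 9 members called in young livers only were Zfp979 on chromosome 4, Zfp974 on chromosome 7, Zfp938 on chromosome 10, Zfp948, Zfp983, Zfp942, Zfp943 and Zfp945 of the chromosome 17 cluster, and Zfp950 on chromosome 19. Thus 5 of the 9 came from 1 cluster. Outside chromosome 17, 14 of 18 members (77.8%) in young domains were also in old domains. Of the 9, Zfp983 alone had also no H3K9me3 region in old livers.

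The young domains that held the lost members were short. The 24 members lay in 18 young domains with a median length of 180 kb. Of these, 7 domains overlapped no old domain, and they ran from 80 to 180 kb with a median of 130 kb. The 11 that did overlap an old domain ran from 90 to 1260 kb with a median of 270 kb. Zfp938 had 92.2% of its body in a young domain of 120 kb (chr10:82120001-82240000), all of which was also H3K9me3 in young livers. Zfp950 had 99% in a domain of 180 kb (chr19:60960001-61140000), and Zfp974 had 11.8% in one of 120 kb (chr7:27790001-27910000). Zfp979 was a borderline case. The domain that reached 26.4% of it in young livers ended at 147620000 and in old livers at 147610000, a shift of 1 calling window that left its nearest old domain 1.94 kb away.

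The 2 gains were on broader domains, in the list with the longer domains (median over all lamin B1 domains 340 kb in old and 200 kb in young livers). Zfp941 near the end of chromosome 7 lay wholly (100%) in an old lamin B1 domain of 940 kb (chr7:140760001-141700000), and its nearest young domain was 3347 kb away. Zfp930 on chromosome 8 had 51% of its body, start site included, in an old domain of 450 kb (chr8:68770001-69220000). Both genes also carried H3K9me3 at both ages, over 85.2% and 95.5% of the body in young and 100% in old livers. In each the start site lay inside an H3K9me3 region in old livers only, but both were borderline cases. The H3K9me3 region of young livers ended at 140820000, short of the Zfp941 start at 140822178. For Zfp930 it began at 69210001, past the start at 69209038. Both gaps are smaller than the 10 kb calling window.

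**Figure D3:**
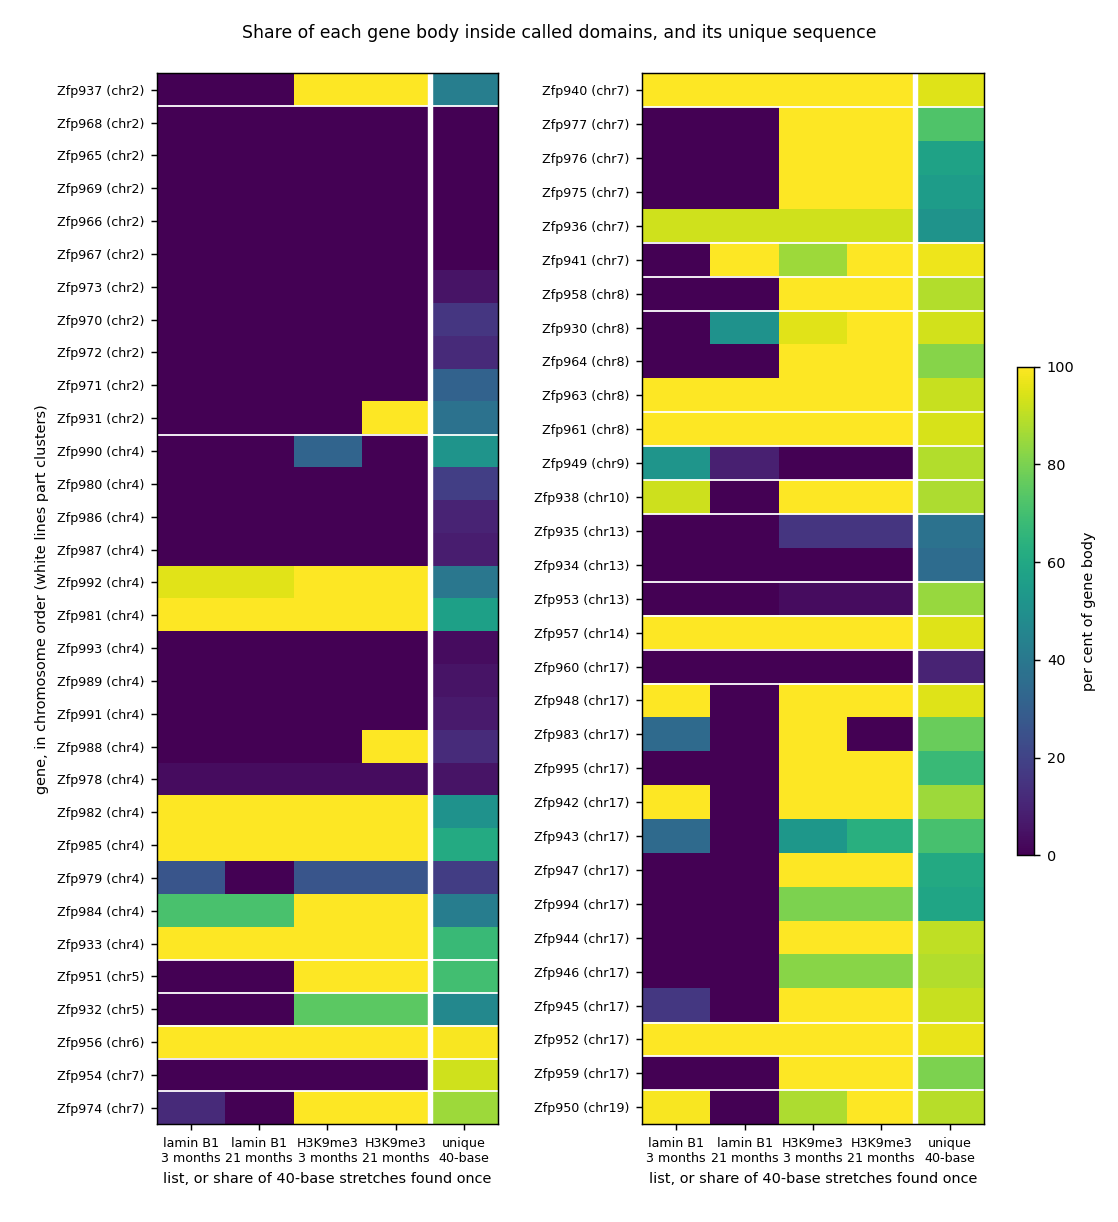
Rows are the 63 members in chromosome order in 2 panels, with white lines between clusters. The first 4 columns give the per cent of the gene body inside lamin B1 and H3K9me3 domains at 3 and 21 months, and the last the per cent of unique 40-base stretches, all on a colour scale from 0 to 100%. The chromosome 17 block shows H3K9me3 at both ages but lamin B1 at 3 months only, and the chromosome 2 block is at 0 in nearly every column.

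Both marks together were seen on 23 members (36.5%) in young livers and 16 (25.4%) in old livers, where 7.08% and 27% of all protein-coding genes had both. H3K9me3 without lamin B1 was found on 19 members (30.2%; all genes 10.4%) in young and on 26 (41.3%; all genes 4.21%) in old livers. Lamin B1 without H3K9me3, the state of 33.9% and 41.3% of all genes, was found on 1 member (1.59%) at each age. That member was Zfp949 on chromosome 9, with 52% of its body in a young lamin B1 domain and 8.6% in an old one, its start site inside at both ages, and the nearest H3K9me3 region 318 kb away in young and 859 kb away in old livers. A further 20 members (31.7%) had neither mark in young livers and 20 at 21 months, against 48.7% and 27.5% of all genes.

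The chromosome 17 cluster lost every lamin B1 domain between the lists while its H3K9me3 stayed. In young livers 4 domains covered 34.1% of its span and touched 5 of the 10 members. They were chr17:21450001-21620000 over Zfp948, chr17:21660001-21790000 over the end of Zfp983, chr17:21920001-22000000 over Zfp942 and Zfp943, and chr17:22670001-22850000 over the end of Zfp945. In old livers 0 domains lay in the span, and the nearest began at 23510001, 643 kb beyond Zfp945. In the 1 Mb on each side, lamin B1 coverage was 20.7% in young and 17.9% in old livers. The other protein-coding genes of the span, 8 in number, went from 3 to 0 touched. Over chromosome 17 as a whole, 40.1% of genes were touched in young and 73.6% in old livers. H3K9me3 covered 65.4% of the span in young and 66.9% in old livers, with 6 regions each time, and touched 10 members and then 9.

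Within that cluster the members differed. Zfp948 and Zfp942 were wholly inside a lamin B1 domain and wholly inside H3K9me3 in young livers (100% each), and only the H3K9me3 remained in old livers. Zfp943 had 34.5% in lamin B1 in young livers, its start site included, and its H3K9me3 share was 52.9% in young and 63.2% in old livers. Zfp995, Zfp947 and Zfp944 were covered whole (100%) by H3K9me3 at both ages and never by lamin B1. Zfp983 was the one to lose both: 34.6% in lamin B1 and 100% in H3K9me3 in young livers, 0% in either in old livers. There the H3K9me3 region chr17:21550001-21730000 of young livers, which also held Zfp948, ended at 21640000 in old livers, 10.6 kb before Zfp983.

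**Figure D4:**
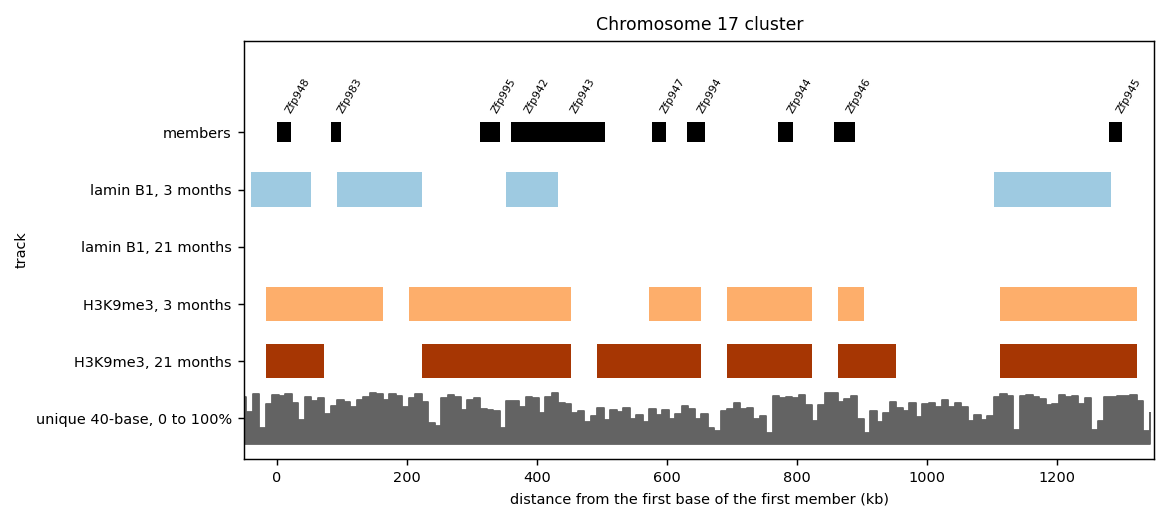
The horizontal axis is the distance in kb from the first base of Zfp948. Black bars are the 10 members, coloured bars the called domains (drawn to 40 kb beyond the outermost members), and the grey profile the per cent of unique 40-base stretches in 10 kb windows, from 0 to 100%. The track of lamin B1 at 21 months is empty, against 4 domains at 3 months, and both H3K9me3 tracks hold 6 regions.

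Zfp942 and Zfp943 are transcribed away from each other, and their annotated starts are separated by 87 bases. These bases, chr17:21962465-21962551 in GRCm38, are given on the minus strand, from the side of the Zfp943 start to that of the Zfp942 start, because both start sites were inside a lamin B1 domain in young livers only and inside H3K9me3 at both ages.
Zfp942 and Zfp943 interval: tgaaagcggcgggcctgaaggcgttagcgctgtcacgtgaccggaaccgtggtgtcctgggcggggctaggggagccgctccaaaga

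Only 3 members had a start site in a lamin B1 domain in young livers alone (4.76%; all genes 4.49%), namely Zfp948, Zfp942 and Zfp943, all in this cluster. For 2 members, Zfp941 and Zfp930, it was in a domain in old livers alone (3.17%; all genes 32.2%). For H3K9me3 the start site of 5 members was inside a region in old livers alone (7.94%, against 18.2% of all genes). These were Zfp931, Zfp988, Zfp941, Zfp930 and Zfp950, of which Zfp941 and Zfp930 started less than 10 kb outside a region of young livers. The start site of Zfp983 was inside a region in young livers alone (1.59%, against 6.19% of all genes).

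The chromosome 4 cluster was called in patches, most of them on both age lists. Its span includes windows without known bases (for example chr4:145900001-146050000), which count in the shares of the span below. Lamin B1 domains covered 20.5% of its span in young and 17.9% in old livers and touched 8 and 7 members, while in the 1 Mb on each side coverage went from 33% to 74%. H3K9me3 covered 25.2% and 29.9% of the span and touched 9 members at each age, of which Zfp990 was touched in young livers only and Zfp988 in old livers only. Of 5 young lamin B1 domains 4 had a counterpart in old livers, and chr4:145540001-145590000, which touched no member, had none. H3K9me3 went from 5 regions to 7, and the region that began at 147230001 lengthened from 50 to 120 kb and thereby took in Zfp988. Zfp992 and Zfp981 lay in the domain chr4:146450001-146540000, which had the same ends in the young and old lamin B1 lists, inside an H3K9me3 region of 110 kb that was also the same at both ages. Zfp982 and Zfp985 lay whole (100%) in a second patch beginning at 147390001, which held the last 3.38% of Zfp978 too. At the far end Zfp933 was covered whole and Zfp984 by 71.3% in a lamin B1 domain that ran from 147770001 to 148170000 in young and to 149250000 in old livers. The called domain thus went from 400 to 1480 kb, away from the cluster. Of the old domain, 1090 kb (73.6%) was also covered by lamin B1 domains in young livers.

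In the chromosome 2 cluster no lamin B1 domain was called on the span at either age. This span too includes windows without known bases (for example chr2:175500001-175590000). The 1 Mb on each side had 0% coverage in young and 72.3% in old livers. The only region on the span was H3K9me3 in old livers, chr2:178060001-178340000, which covered all of Zfp931, the last member. Lone Zfp937, on the same chromosome was covered whole by H3K9me3 at both ages with 42.6% unique stretches and had no lamin B1.

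The smaller clusters kept their H3K9me3. Zfp977, Zfp976 and Zfp975 on chromosome 7 were covered whole at both ages by 1 region (240 kb in young, 210 kb in old livers) and by no lamin B1 domain, the nearest of which lay 427 kb from Zfp975. Zfp936, the fourth member, had 92.6% of its body in both marks at both ages, although its lamin B1 domain shortened from 270 kb at 3 months to 90 kb at 21 months. On chromosome 8, Zfp963 lay at both ages in the same lamin B1 domain of 1260 kb (chr8:69700001-70960000), and Zfp964 lay 33 kb outside it. Both were covered whole by H3K9me3. On chromosome 13, Zfp935 had 15.5% of its body in H3K9me3 at both ages and Zfp934 0%. Their unique shares were 37.8% and 35.3%.

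Among the lone members, Zfp956, Zfp940, Zfp961, Zfp957 and Zfp952 were covered whole at both ages by lamin B1 and by H3K9me3. All had at least 93.8% unique stretches. Zfp951, Zfp958 and Zfp959 were covered whole by H3K9me3 at both ages and touched no lamin B1 domain. Zfp953 had 3.26% in H3K9me3 at both ages. Zfp960 was untouched, although an H3K9me3 region ended 4.11 kb before it at both ages, and 9.8% of its stretches were unique.

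Foxa2, which binds DNA through a winged-helix (forkhead) domain and is a pioneer factor of liver chromatin, had few called sites near these genes in most places. Within the gene body and 50 kb on each side, 12 members (19%) had a site in wild type, against 32% of all protein-coding genes and 22.7% of the other Zfp genes. In Zmpste24 KO 19 members (30.2%) did, against 40.2% and 32.2%. A site was near 11 members in both genotypes (17.5%; all genes 20.2%), near Zfp949 in wild type only (1.59%; all genes 11.8%), and near 8 members in KO only (12.7%; all genes 20%), namely Zfp979, Zfp984, Zfp933, Zfp930, Zfp961, Zfp938, Zfp944 and Zfp946. Zfp944 and Zfp946 shared 1 KO site (chr17:22400726-22401462), and Zfp984 and Zfp933 another (chr4:147852829-147853883). No member of the chromosome 2, chromosome 7 or chromosome 13 clusters had a site within 50 kb in either genotype.

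The chromosome 4 cluster held most of them. Of 28 distinct wild-type sites near members 22 lay there, and of 30 KO sites 21. Without this cluster, 4 of 47 members (8.51%) had a site in wild type and 8 of 47 (17%) in KO. These chromosome 4 sites were wide. Their median width in wild type was 1811 bp and 10 of 22 (45.5%) were wider than 2000 bp, whereas 2.36% of all 4912 wild-type sites on chromosomes 1 to 19 were. In KO 7 of 21 (33.3%) were wider than 2000 bp, against 1.65% of all 8051 sites. The widest, 7851 bp in wild type, lay beyond the end of Zfp978 at chr4:147419248-147427098. Unique 40-base stretches made up a median of 69.3% of the chromosome 4 sites in wild type and 77.5% in KO, against 100% over all sites. The part of alignment in their number and width was not tested. They also recurred between genotypes, as 11 of the 22 wild-type sites on chromosome 4 overlapped a KO site (50%), against 27.3% of all wild-type sites. The share was the same for wild-type sites near members on other chromosomes (3 of 6). The part of site width in these overlaps was not tested.

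**Figure D5:**
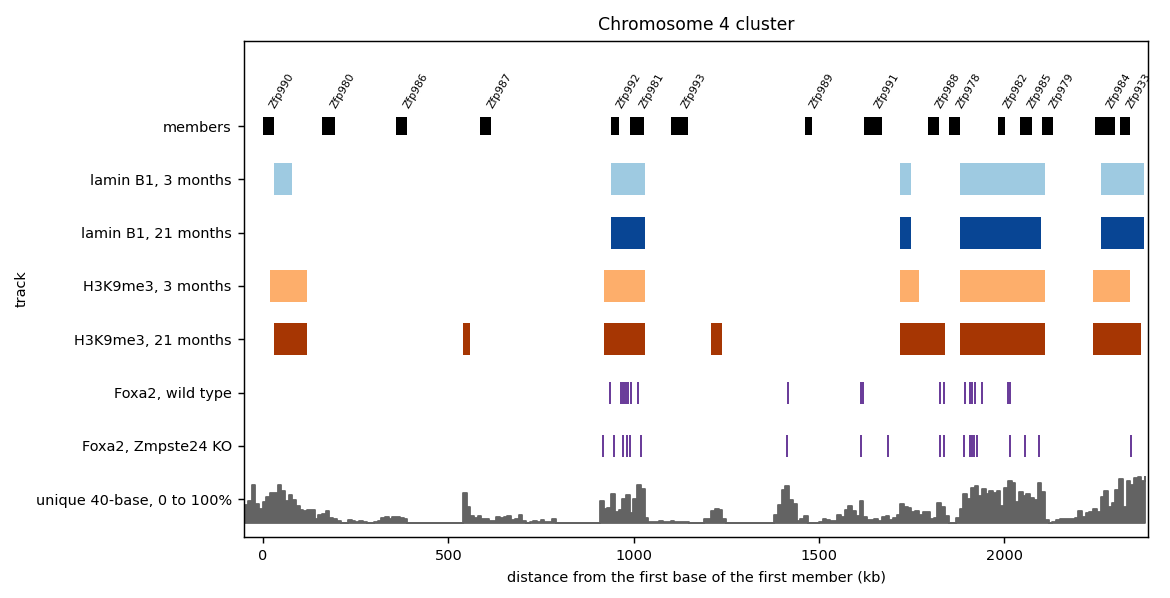
The horizontal axis is the distance in kb from the first base of Zfp990. Black bars are the 16 members, coloured bars the lamin B1 and H3K9me3 domains (drawn to 40 kb beyond the outermost members), purple ticks the centres of the Foxa2 sites within 50 kb of a member, and the grey profile the per cent of unique 40-base stretches per 10 kb window, from 0 to 100%. Domains and most Foxa2 sites stand over the stretches where the grey profile rises, and long intervals without either have a low profile or no known bases. Windows without known bases, such as those of chr4:145900001-146050000, have no value and are drawn as 0.

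On a gene body itself a site was called in 1 member in wild type (1.59%; all genes 11.1%) and in 6 members in KO (9.52%; all genes 14.1%). In wild type this was Zfp981, with 2 sites, one of which (chr4:146501718-146502657) spanned its GENCODE start. The RefSeq start matched to Zfp981 lies 12893 bp from that start, outside the site. In KO they were Zfp992, Zfp981, Zfp985, Zfp961, Zfp938 and Zfp950, with 1 site each, every one in an intron. The KO site in Zfp938 (chr10:82238023-82239108) was centred 2.71 kb inside the gene, and that in Zfp950 (chr19:61138705-61139144) 1.92 kb inside. Zfp938 and Zfp950 were also among the members whose lamin B1 domain was in the young list only, but those lists came from other mice than the Foxa2 lists and no age list of Foxa2 was used here.

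The forkhead word TGTTTAC, searched on both strands, was found in 4 of the 28 wild-type sites near members (14.3%) and 4 of the 30 KO sites (13.3%), against 27.8% and 23.4% of all sites on chromosomes 1 to 19. It was found in 0 of the 53 member promoters, and in 3.71% of the 31396 promoters of chromosomes 1 to 19. The site over the GENCODE start of Zfp981 held none. The 250 bases before that start, all inside the wild-type site, are chr4:146501777-146502026 on the plus strand.
Zfp981 upstream: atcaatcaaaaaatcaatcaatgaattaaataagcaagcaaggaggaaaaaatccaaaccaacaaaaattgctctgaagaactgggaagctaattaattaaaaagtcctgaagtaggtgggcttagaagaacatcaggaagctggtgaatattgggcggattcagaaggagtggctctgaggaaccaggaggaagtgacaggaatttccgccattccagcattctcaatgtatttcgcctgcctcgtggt

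The word occurred at 7 distinct positions in these sites, of which 5 are shown with 60 bases of GRCm38 each and the word in capitals. The first and second lie near Zfp978 in sites called in both genotypes (chr4:147416687-147416746, minus strand, and chr4:147428561-147428620, plus strand). The third opens a wild-type site between Zfp982 and Zfp985 (chr4:147522149-147522208, plus strand). The last ones lie in KO sites, in an intron of the neighbouring gene Zfp617 upstream of Zfp961 (chr8:71925116-71925175, minus strand) and in an intron of Zfp938 (chr10:82238211-82238270, minus strand).
near Zfp978, first: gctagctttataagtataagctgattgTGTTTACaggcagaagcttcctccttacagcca
near Zfp978, second: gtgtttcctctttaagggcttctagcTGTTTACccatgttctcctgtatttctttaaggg
between Zfp982 and Zfp985: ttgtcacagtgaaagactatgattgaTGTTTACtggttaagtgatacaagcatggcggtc
upstream of Zfp961: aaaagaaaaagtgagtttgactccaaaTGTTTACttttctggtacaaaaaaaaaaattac
within Zfp938: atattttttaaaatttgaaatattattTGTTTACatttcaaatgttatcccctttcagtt

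Away from chromosome 4, Zfp956 had 1 site in each genotype, centred 32.8 kb before its start in wild type and 32.9 kb before it in KO. Zfp941 had 3 sites in wild type and 2 in KO, of which the wild-type sites centred 28.6 kb past the start and 34.2 kb before it overlapped a KO site. Zfp949 had its one wild-type site 51.5 kb beyond its start.

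Genes of a list of co-repressors and other silencing factors (the co-repressor list) were, like protein-coding genes at large, more often in lamin B1 domains than in H3K9me3. All 20 genes of the list (among them Trim28, the KRAB partner, Setdb1 and Atf7ip, which form an H3K9 methyltransferase, and the heterochromatin proteins Cbx1, Cbx3 and Cbx5) were found in the annotation. Of these, 16 touched a lamin B1 domain in young and 18 in old livers, where 40.9% and 68.3% of all protein-coding genes did. H3K9me3 touched 6 and 8 of them, against 17.4% and 31.2% of all genes. The whole gene body was inside H3K9me3 for 3 of them at each age (all genes 10.5% and 22.3%). Some touches were slight, as in young livers for Ehmt1 (0.056% of its body) and Pphln1 (1.62%). Lamin B1 without H3K9me3 was found on 11 of the 20 in young and 10 in old livers (all genes 33.9% and 41.3%), and 0 were untouched by all 4 lists (all genes 20%). Trim28 was wholly in lamin B1 domains at both ages and had no H3K9me3. Setdb1 had 48.9% of its body in lamin B1 at 3 months and 100% at 21 months, again without H3K9me3, and Atf7ip was in both marks at both ages. Cbx3 was in a lamin B1 domain in old livers only, as were Suv39h2, an H3K9 methyltransferase, and Daxx, a histone chaperone. Morc2a touched one in old livers only, with 49.6% of its body. Fam208a, a subunit of the HUSH silencing complex, and Smarcad1 were in a lamin B1 domain in young livers only. A Foxa2 site within 50 kb was called for 4 of the 20 in wild type and 7 in KO, against 32% and 40.2% of all genes.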

How the data were processed

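ChIP-Seq was done on mouse livers for lamin B1 and H3K9me3 (2 young and 2 old libraries each) and Foxa2 (3 wild-type and 3 Zmpste24 KO libraries). The H3K9me2 libraries were not analysed here. Per the study's methods the authors used BWA for alignment to mm10 and Picard against duplicates, and only reads with a single aligned place went on. Replicates were then merged, Epic called the lamin B1 domains, and PeakSeq called the Foxa2 sites after the KO reads had been reduced to the wild-type number. Epic keeps windows with more reads than its background and joins nearby ones. A window without unique reads can thus enter a domain only by being joined between kept windows. The submitters' processing notes name BWA and SICER for all libraries, and the study's methods do not say separately which program made the H3K9me3 lists. The deposited lists hold positions only, with no count, score or other measured unit. Groups were assigned to lists by name, which for lamin B1 and Foxa2, but not for H3K9me3, the number of regions backed. The mm10 labels and the GRCm38 genome used here are the same assembly.

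Members were the protein-coding genes of GENCODE M21 on chromosomes 1 to 19 with symbols Zfp9 and 2 more digits. A gene was called if at least 1 base of its body, or its start site, lay in a domain, or if a Foxa2 site lay within its body and 50 kb on each side. Unique sequence was the share of 40-base stretches, taken every 50 bases along genes (every 10 in sites and 10 kb windows), that occur once in the genome on either strand. Counts of members stand beside those of all protein-coding genes. The members, the compared gene sets and the co-repressor list were chosen with earlier results of these data known. The genes named are the members in clusters, those whose call differed between ages, those near a Foxa2 site, those with the most and fewest fingers, and the co-repressors, and lone members outside these were added after their values were seen. The overlap and uniqueness code was tested on simulated data. Python 3.11.15, numpy 2.4.6, pandas 2.3.3 and numba 0.67.0 were used.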

Additional observations from a re-analysis of the deposited data

How the results depend on the processing

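Of 98 recomputed shares, 83 stayed within 1.5 times the share reported. Requiring the whole gene body inside domains gave 19% (lamin B1, young), 17.5% (lamin B1, old) and 19% (both marks, young). Counting each cluster or lone member once gave 41.7% for gene bodies in old lamin B1 domains, and 37.5% for start sites in lamin B1 at each age. With only the 37 members that have at least 50% unique stretches, an alternative chosen after seeing the data, the start-site shares were 37.8% (lamin B1, young), 35.1% (lamin B1, old) and 73% (H3K9me3, young). Foxa2 sites on the gene body alone were near 1.59% of members in wild type and 9.52% in KO, within 10 kb near 7.94% and 17.5%, and without the chromosome 4 cluster (at 50 kb) near 8.51% and 17%. Gene bodies in H3K9me3 ranged over the alternatives from 46% to 94.6% in young and from 52.4% to 89.2% in old livers. Joining members at most 500 kb apart gave 8 clusters, and at most 2 Mb apart 7, in place of 6. No paired analysis was possible because the lists were called on merged replicates. No replicate was left out and no stricter call was made, for want of values per library and of scores. Depth differed between the ages, in opposite directions for lamin B1 and H3K9me3, and its part in the calls was not tested.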
